A study of Danio rerio with 5 samples.

Results

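The transcripts described here are those of 9 zebrafish (Danio rerio) Krüppel-like factor genes, klf17, klf2a, klf2b, klf3, klf4, klf6a, klf7b, klf11a and klf13. They were chosen by their symbols among 32520 genes in the deposited tables, and the other 11 genes with a klf symbol serve as comparison. Whole embryos were collected at 4 hours after fertilisation, when the blastula has begun to transcribe its own genome. All groups belong to an experiment with RfxCas13d, an RNA-guided nuclease that cuts RNA matching its guide. The control group held 3 libraries labelled RfxCas13d control, replicates 1 to 3. The knockdown embryos gave 1 library with 10 guides, 9 of them beside a guide against szrd1, and 1 library with 25 guides, of which 24 were beside the szrd1 guide. The design asked how many guides can be injected together in a search for efficient ones. The labels name none of the other guides' targets, no strain, no number of embryos and no guide for the controls. They do not say whether the controls are separate clutches. All p-values therefore reflect the spread among these libraries alone, and that spread may be technical.

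Krüppel-like factors bind GC-rich and CACCC sequences through zinc fingers at the end of the protein. Mammalian members fall into activators such as KLF2, KLF4, KLF6 and KLF7, repressors that recruit CtBP such as KLF3, and repressors that recruit Sin3 such as KLF11 and KLF13. In zebrafish, klf2a, klf2b and klf17 are known as targets of the maternal factor Pou5f3 that act in the enveloping layer, the outer epithelium of the blastula, and in the ectoderm. Zebrafish klf17 is also known for its part in the hatching gland and in primitive blood.

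Gene counts totalled between 5283761 and 14179837 per library. Nextera XT reactions were made at 1/4 volume for control replicates 1 and 2 and at 1/8 volume for control replicate 3 and both pools, per the labels' protocols. Control replicate 3 had the lowest total and the largest share of unmapped reads, 44%, against 13.1% to 21% in the others. The targeted szrd1 had 221, 278 and 311 CPM (counts scaled to library size with TMM) in control replicates 1 to 3, 41.3 CPM in the 10-guide pool and 45.6 CPM in the 25-guide pool. Both pools were below every control for it. The log2 fold change of both pools was -2.63 (SE 0.40), with an adjusted p of 0.232 in edgeR's quasi-likelihood test. The pluripotency factors pou5f3, between 653 and 1000 CPM, and nanog, between 1584 and 2225 CPM, were abundant in every library. The list of deep blastomere and pluripotency genes that holds them also held low ones, with foxd3 at 4.86 to 18.3 CPM and sox2 at 0 to 0.519 CPM.

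One gene carried most of the family's RNA. klf17 was at 437, 345 and 287 TPM (abundance scaled for transcript length and library) in control replicates 1 to 3, at 322 TPM in the 10-guide pool and at 310 TPM in the 25-guide pool. Its mean over the 5 libraries, 340 TPM, ranked 413 among all genes. klf2a followed with 39.9, 74.5 and 57.7 TPM in the controls, 151 TPM in the 10-guide pool and 106 TPM in the 25-guide pool. klf2b was at 12.5, 13 and 30.8 TPM in the controls, 25.7 TPM in the 10-guide pool and 40.4 TPM in the 25-guide pool. The order klf17, klf2a, klf2b held in every library, and over all libraries klf17 overlapped with neither of the others. The highest klf2b value, in the 25-guide pool, just passed the lowest klf2a value, in control replicate 1.

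The next 3 members had close levels. klf11a had 8.7 ± 2.06 TPM in the controls, klf3 had 6.92 ± 4.44 TPM and klf6a had 4.23 ± 0.701 TPM (SD, n = 3). Their order changed between libraries. klf11a came after klf2b in every library except control replicate 3, where klf3 did, and klf3 was the lowest of these 3 in control replicate 1 and both pools. klf7b, at 1.3 ± 0.497 TPM in the controls, came below them in every library and above klf4 and klf13.

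klf4 and klf13 were near the limit of detection. klf4, whose mouse counterpart is a reprogramming factor and a regulator of the skin barrier, had 2, 12 and 5 counts in control replicates 1 to 3, 2 in the 10-guide pool and 0 in the 25-guide pool. With no count, the 25-guide pool allows up to 0.411 CPM by the limit of 3 counts and up to 0.505 CPM by the exact 95% Poisson interval, against 0.17, 1.01 and 0.865 CPM in the controls. That interval did not overlap the one of control replicate 2, 0.521 to 1.76 CPM, and overlapped those of control replicates 1 and 3. klf13, known in mammals from T lymphocytes, had 0, 3 and 0 counts in the controls, 1 in the 10-guide pool and 6 in the 25-guide pool. The exact 95% Poisson intervals overlapped between the 25-guide pool, at 0.301 to 1.79 CPM, and control replicate 2, at 0.052 to 0.737 CPM. Such intervals and limits cover counting error only. Neither gene passed the expression filter of the main edgeR fits, which kept 7 of the 9 members, so neither was tested there.

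The make-up of the family differed between libraries. The 20 klf genes summed to 502 ± 29.5 TPM in the controls (SD, n = 3), 599 TPM in the 10-guide pool and 578 TPM in the 25-guide pool. klf17 gave 81.5%, 70.3% and 59.7% of that sum in control replicates 1 to 3, 53.7% in the 10-guide pool and 53.6% in the 25-guide pool. klf2a gave 7.44%, 15.2% and 12% in the controls, 25.1% in the 10-guide pool and 18.4% in the 25-guide pool. The share of klf17 was thus lowest and the share of klf2a highest in the pools, with no overlap with the controls for either. Both are parts of 1 sum, so they are not independent. In TPM itself klf2a had both pools above every control, as did 22.7% of all tested genes, while klf17 overlapped. The klf17 share was also lower in control replicate 3, made at 1/8 volume like the pools, than in the controls at 1/4 volume. These shares carry no test, and among the controls alone the klf17 share spanned a wider range than the gap between the pools and control replicate 3. For klf2a the share likewise spanned more among the controls than the gap between the 25-guide pool and control replicate 2.

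**Figure D1:**
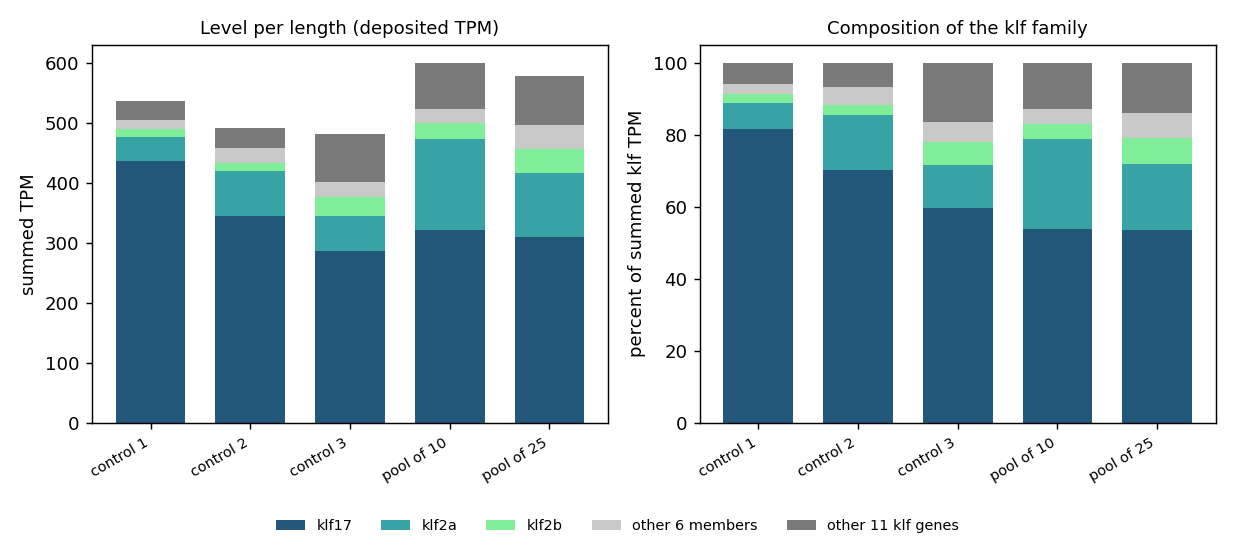
Summed deposited TPM of the 20 klf genes (left) and the percent of that sum (right) in each of the 5 libraries, stacked by gene: klf17, klf2a, klf2b, the other 6 members and the other 11 klf genes. klf17 is the largest block in every bar, from 81.5% in control replicate 1 to 53.6% in the 25-guide pool.

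Against the controls, no member passed the test in either pool. edgeR's quasi-likelihood test with Benjamini-Hochberg adjustment over 16445 genes called 0 of the 7 tested members in the 10-guide pool, in the 25-guide pool, in both pools together and between the pools, beside 0% of all genes in each. At an unadjusted p under 0.05 no member was among the 3.22%, 3.05%, 10.6% and 0.791% of genes that passed, in the same order. DESeq2 called 9, 9, 106 and 0 genes in these comparisons, and no member was among them. The smallest adjusted p of a member was 0.506, for klf17 with both pools together. Over the members tested, the median log2 fold change of both pools was 0.36, beside -0.08 over all genes. The text below gives the values gene by gene, on the CPM scale for differences between libraries. Values for both pools together take the pools as replicates of 1 condition, though their numbers of guides differ. Whole embryos were sequenced, so fewer cells of a type and less RNA per cell cannot be told apart.

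klf17 was at 599, 507 and 241 CPM in control replicates 1 to 3, 281 CPM in the 10-guide pool and 256 CPM in the 25-guide pool. Control replicates 1 and 2 were high, and control replicate 3 was the lowest of the 5 libraries, so the pools lay within the range of the controls. Fitted log2 fold changes were -0.68 (SE 0.67) in the 10-guide pool, -0.81 (SE 0.68) in the 25-guide pool and -0.74 (SE 0.43, 95% interval -1.71 to 0.22, edgeR adjusted p = 0.506) for both together. The size and the call moved with single controls. Without control replicate 1 the value was -0.48 (edgeR adjusted p = 0.83) and without control replicate 2 it was -0.65 (adjusted p = 0.9). Without control replicate 3 it was -1.06 (edgeR adjusted p = 0.00621), a setting in which 4313 genes of the whole table were called. With a term for reaction volume, which sets the pools against control replicate 3 alone, it was 0.15 (SE 0.27, interval -0.44 to 0.75).

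The difference of klf17 went with reaction volume. All 3 libraries of 1/8 volume were below both libraries of 1/4 volume, with means of 259 and 553 CPM, and 27.7% of all tested genes were likewise below. Over both directions 52.8% of genes had no overlap between the volumes on the CPM scale and 55.4% on the TPM scale. In the additive fit the volume term, which is the contrast of control replicate 3 with control replicates 1 and 2, was -1.20 for klf17 (SE 0.28, interval -1.82 to -0.58, edgeR adjusted p = 0.0182). It was the only one of the 7 tested members called, beside 17.8% of all genes (8.93% lower and 8.84% higher). It was also the only member at an unadjusted p under 0.05, beside 32.4% of all genes. DESeq2 called it too (log2 fold change -1.18, adjusted p = 0.000318). The call was lost with library size as the only scaling (-0.87, adjusted p = 0.0615) and with limma on the deposited TPM (-0.44 on the log2(TPM + 1) scale, adjusted p = 0.386), while the direction stayed. On the TPM scale the 1/8 volume libraries were also all below the others, at 306 against 391 TPM. Volume cannot be told apart from whatever else set control replicate 3 apart, such as its depth and unmapped reads. As the only control at 1/8 volume, that library also adds nothing to the residual spread behind the volume term.

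klf2a, which in later zebrafish embryos responds to blood flow in the endothelium, was at 73.8, 147 and 71.5 CPM in control replicates 1 to 3, 180 CPM in the 10-guide pool and 117 CPM in the 25-guide pool. The pool of 10 was above every control, and the 25-guide pool was below control replicate 2. The log2 fold change of both pools was 0.61 (SE 0.44, interval -0.37 to 1.58, edgeR adjusted p = 0.577). Against control replicate 3 alone, through the volume term, it was 1.05 (SE 0.44, interval 0.07 to 2.04), with an unadjusted p of 0.0389 and an adjusted p of 0.526 in edgeR's test. On the TPM scale both pools lay above every control, as did 22.7% of all genes on that scale against 14.6% on the CPM scale. TPM moved the median log2 fold change of all genes to 0.32, on the log2(TPM + 1) scale.

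klf2b, a gene of the enveloping layer and epidermis, was at 41.3, 46.6 and 64.9 CPM in the controls, 51.3 CPM in the 10-guide pool and 79.1 CPM in the 25-guide pool. The 3 libraries of 1/8 volume were all above the 2 of 1/4 volume, with means of 65.1 and 44 CPM. That held for 25.1% of all genes, and the volume term missed the threshold (0.56, SE 0.34, interval -0.21 to 1.33, edgeR adjusted p = 0.29). Both pools against the controls gave 0.36 (SE 0.40, interval -0.54 to 1.26) on the log2 scale, and 0.01 (interval -0.77 to 0.79) with the volume term.

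**Figure D2:**
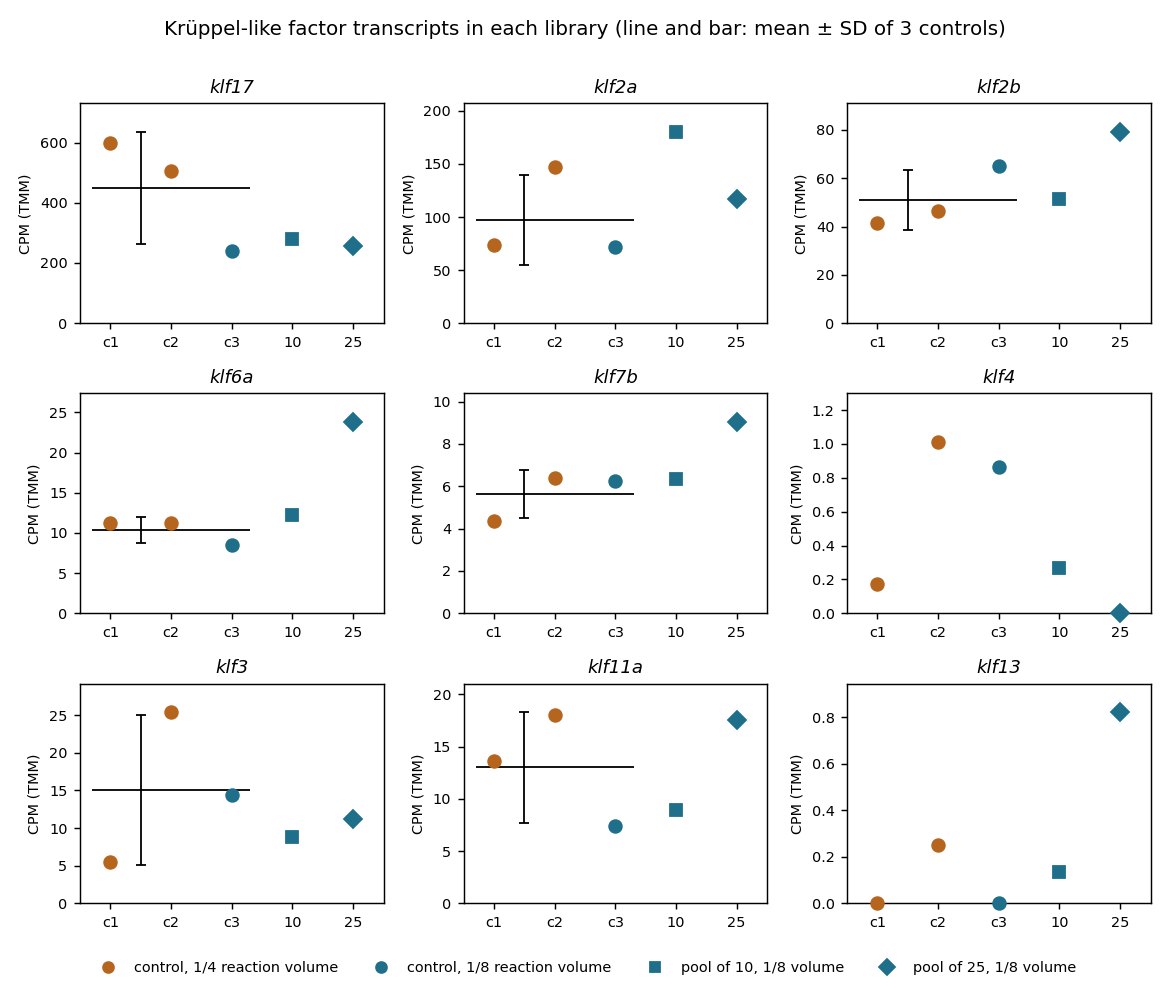
CPM (TMM-scaled counts, linear axes from 0) of the 9 members in control replicates 1 to 3 (c1 to c3) and in the pools of 10 and 25 guides; colour gives the reaction volume, and the line and bar are the mean ± SD of the 3 controls, left out for klf4 and klf13. klf17 is high in the 2 controls of 1/4 volume (599 and 507 CPM) and at 241 to 281 CPM in the other libraries, while klf6a is highest in the 25-guide pool (23.8 CPM).

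klf6a and klf7b belong to the activator group. klf6a, needed for growth of the liver and gut in zebrafish, was at 11.2, 11.3 and 8.48 CPM in the controls, 12.2 CPM in the 10-guide pool and 23.8 CPM in the 25-guide pool. It was the only member with both pools above every control on the CPM scale, as were 14.6% of all tested genes. No member had both pools below every control, which 14.9% of genes had on the CPM scale and 7.48% on the TPM scale. For klf6a the 10-guide pool exceeded the highest control by less than the SD of the controls, 1.62 CPM. In the fits, klf6a had a log2 fold change of 1.20 in the 25-guide pool (SE 0.66, interval -0.25 to 2.65, edgeR adjusted p = 0.913) and 0.23 in the 10-guide pool (SE 0.69). The difference between the pools was 0.97 (SE 0.86, interval -0.93 to 2.87, edgeR adjusted p = 1). Against control replicate 3 alone, through the volume term, the klf6a values were larger. They were 1.49 (SE 0.61) in the 25-guide pool, 0.52 (SE 0.61) in the 10-guide pool and 1.08 (SE 0.55) for both pools together, and none was called. All rest on control replicate 3, the lowest of the controls for klf6a. klf7b, whose mammalian counterpart acts in axon growth, was at 4.34, 6.39 and 6.23 CPM in the controls, 6.35 CPM in the 10-guide pool and 9.03 CPM in the 25-guide pool. Its log2 fold change in the 25-guide pool was 0.68 (SE 0.81), and the 10-guide pool lay within the controls on the CPM scale (0.17, SE 0.83). On the TPM scale both pools, at 2.66 and 3.04 TPM, were above every control, at 0.89 to 1.85 TPM, and the 10-guide pool gave 0.69 on the log2(TPM + 1) scale (limma adjusted p = 0.844) and 1.04 on the log2(TPM + 0.1) scale (adjusted p = 0.85).

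klf3, the CtBP-type repressor of the set, varied most among the controls of the 7 tested members. It was at 5.44, 25.4 and 14.4 CPM in control replicates 1 to 3, a 4.66-fold range, and at 8.78 CPM in the 10-guide pool and 11.2 CPM in the 25-guide pool. Its coefficient of variation over the controls was 66.3%, where klf6a had 15.7% and the median of all tested genes was 44.6%. Both pools lay inside the range of the controls, and the log2 fold change of both pools was -0.59 (SE 0.63, interval -2.00 to 0.81, edgeR adjusted p = 0.703). Without control replicate 2 it was 0.03.

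The 20 listed enveloping layer markers followed the same order among the controls. Summed, they reached 861, 2933 and 2121 CPM in control replicates 1 to 3, 1688 CPM in the 10-guide pool and 1679 CPM in the 25-guide pool. On the CPM scale control replicate 1 was lowest and control replicate 2 highest, as for klf3. On the TPM scale control replicate 3 was highest for both. There klf3 was at 1.92, 8.44 and 10.4 TPM in control replicates 1 to 3, and the marker sum at 512, 1662 and 1856 TPM. Between 2 and 6 of the 20 markers had no count in a library, and agr1 had none in any. The keratin gene krt4 ranged from 45.1 CPM in control replicate 1 to 372 CPM in control replicate 2. The claudin gene cldne, a marker on the list, was the second nearest in pattern to klf3 among 11320 genes. klf2b was also lowest in control replicate 1, on both scales, and klf17 was highest there. klf2a was lowest in control replicate 1 on the TPM scale, at 39.9 TPM, and on the CPM scale its values in control replicates 1 and 3, 73.8 and 71.5 CPM, were close. The part of cell composition in these differences was not tested.

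The Sin3-type repressor klf11a, in human a gene induced by TGF-beta, was at 13.6, 18 and 7.44 CPM in the controls, 8.91 CPM in the 10-guide pool and 17.5 CPM in the 25-guide pool. On the CPM scale the pools fell on different sides of the control mean, 13 ± 5.29 CPM (SD, n = 3), and both were within the controls' range. On the TPM scale both pools, at 9.82 and 17.6 TPM, were above the control mean of 8.7 TPM. There the 25-guide pool was also above every control, at 6.99 to 11 TPM. The fitted difference of klf11a from the counts, on the log2 scale, was -0.55 (SE 0.79) in the 10-guide pool and 0.42 (SE 0.74) in the 25-guide pool. Between the pools it was 0.97 (SE 0.94, interval -1.11 to 3.05, edgeR adjusted p = 1).

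**Figure D3:**
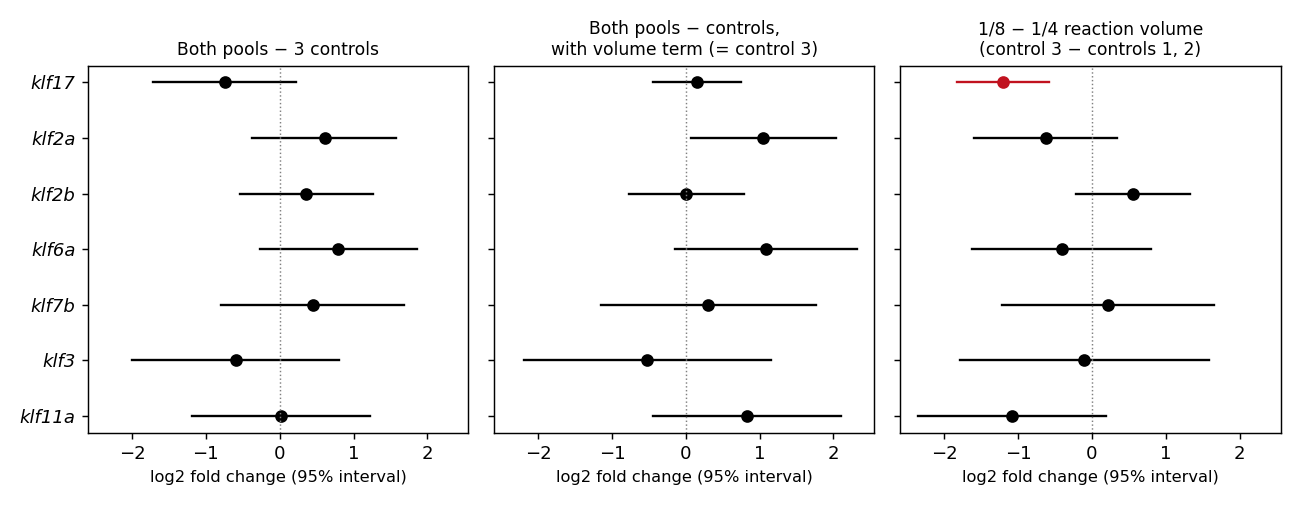
Log2 fold change (point) and 95% interval (line) of the 7 tested members from edgeR for both pools against 3 controls (left), the same with a volume term, which sets the pools against control replicate 3 (middle), and the volume term itself (right); red marks an adjusted p under 0.05. Only klf17 for volume is red, at -1.20, and the intervals on the left all include 0.

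Intervals bound what could have been missed. For both pools the ratio to the controls lay within 0.306 to 1.17 for klf17, 0.776 to 2.99 for klf2a and 0.687 to 2.39 for klf2b. For the 25-guide pool against the 10-guide pool the ratio lay within 0.271 to 3.08 for klf17, 0.188 to 2.24 for klf2a and 0.473 to 5.02 for klf2b. These ranges come from fits without a volume term. They do not exclude a doubling of klf2a or klf2b in the pools, or a loss of most of klf17. With the volume term, which sets the pools against control replicate 3 alone, the range for both pools was 0.738 to 1.68 for klf17. It was 1.05 to 4.11 for klf2a and 0.585 to 1.73 for klf2b.

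The patterns of the members over the 5 libraries differed from each other. The distance used was the root mean square difference of log2(CPM + 1), each gene centred on its mean. The genes nearest to klf17 were the myosin light chain gene myl12.2 (distance 0.043) and lsm12b (0.045). For myl12.2 the controls had 553, 453 and 212 CPM and the pools of 10 and 25 had 265 and 223 CPM, a step at reaction volume like that of klf17. The nearest klf gene, klf11a, was at 0.508, and 3908 genes were closer to klf17 than it was. klf2b had the closest neighbours, the kinase gene dapk1 (0.017) and SRBD1 (0.033), and its nearest family gene was klf7b (0.168), with 136 genes closer.

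For klf3 the nearest genes were fam13a (0.133) and cldne (0.141). For klf2a they were bend3 (0.125) and lrrc58b (0.136), and for klf6a ypel1 (0.112) and nim1k (0.122). klf7b was nearest to the ubiquitin ligase gene RNF14 (0.058) and the histone methyltransferase gene setd2 (0.068). klf11a was nearest to golph3l (0.088), a Golgi protein gene, and the glypican gene gpc3 (0.102). In no case was a klf gene among the first 2, but only 16 of the 16445 tested genes were klf genes. The search covered 11320 other genes of at least 5 CPM on average, which left out the tested klf12a, klf6b, klf5b, klf7a and klf15. These distances describe 5 libraries and carry no test.

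**Figure D4:**
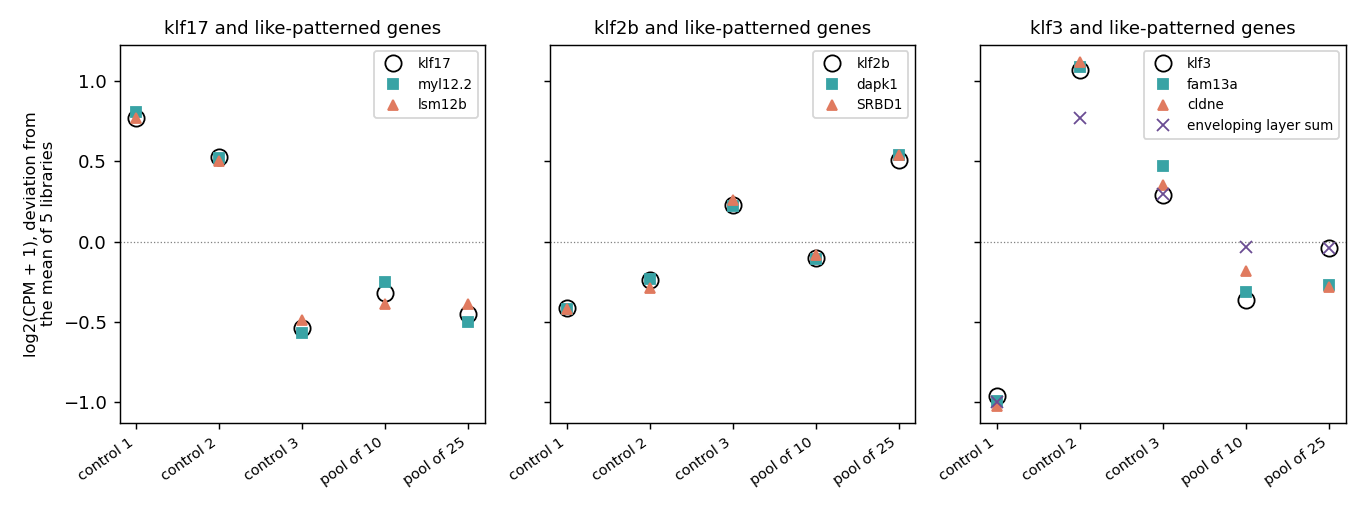
Deviation of log2(CPM + 1) from the mean of the 5 libraries for klf17, klf2b and klf3 (open circles) and the 2 genes nearest to each (filled symbols), with the sum of 20 enveloping layer markers (crosses) beside klf3. klf17 goes from 0.77 in control replicate 1 to -0.54 in control replicate 3, and klf3 from -0.96 in control replicate 1 to 1.07 in control replicate 2.

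Among the other 11 klf genes, klf8, in human a repressor that recruits CtBP, moved opposite to klf17. It was at 12.1, 11.8 and 37.6 CPM in control replicates 1 to 3, 32.3 CPM in the 10-guide pool and 44.6 CPM in the 25-guide pool. The volume term was 1.65 (SE 0.37, interval 0.83 to 2.48, edgeR adjusted p = 0.0159), while both pools against the controls gave 0.92 (SE 0.56, adjusted p = 0.517). On the TPM scale klf17 exceeded klf8 62.7-fold and 55.5-fold in control replicates 1 and 2 but 8.81-fold in control replicate 3, 10.1-fold in the 10-guide pool and 7.29-fold in the 25-guide pool. This ratio was chosen after its values were seen.

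Of the rest, klf11b had a mean of 12.3 TPM over the 5 libraries, klf9 had 9.27 TPM, klf6b 4.82 TPM, klf5l 4.69 TPM, klf12a 2.73 TPM and klf5b 1.06 TPM. klf9, a hormone-responsive gene in mammals, had both pools, at 12.7 and 9.58 CPM, above every control, at 9.27, 6.55 and 4.85 CPM. For both pools the log2 fold change was 0.69 (SE 0.53, edgeR adjusted p = 0.599). klf7a went the other way, with both pools, at 0.135 and 0.411 CPM, below every control, at 0.595, 3.19 and 1.56 CPM. Its log2 fold change was -2.65 (SE 1.48, edgeR adjusted p = 0.491), on 1 and 3 counts in the pools. Of all tested genes, 14.6% had both pools above every control and 14.9% had both below, on the CPM scale. klf1, klf12b, klf7a and klf15 were each below 1 TPM on average. klf1 and klf12b did not pass the expression filter, and none of the other 8 was called in any of the 5 comparisons.

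The lists of other Sp and Klf genes and of cofactors gave no call in the pools either. Of 18 tested genes among the other Sp and Klf genes, 8 had a positive and 10 a negative log2 fold change in both pools, with a median of -0.09. The cofactor list held genes of corepressors and acetyltransferases known to bind mammalian KLFs, and also wwp1 and fbxo32, which are neither. Of its 18 tested genes, 14 were above 0 in both pools, with a median of 0.41 beside -0.08 over all genes. Of all 16445 tested genes, 7661 were above 0 for both pools together. The cofactors with the smallest p in that comparison were kat2a, sin3b and sin3ab. sin3ab was at 45.1, 35.2 and 123 CPM in the controls, 135 CPM in the 10-guide pool and 148 CPM in the 25-guide pool. The pools lay above every control, as for 14.6% of all tested genes on the CPM scale, and control replicate 3 lay near them. Its log2 fold change was 1.06 (SE 0.52, edgeR adjusted p = 0.475) in both pools and 1.61 (edgeR adjusted p = 0.0077) for volume. For volume 14 of the 18 genes on the cofactor list were also above 0, with a median of 0.80 beside -0.12 over all genes. Among the 18, 4 were called higher for volume and 1 lower, beside 8.84% and 8.93% of all genes.

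Markers of other cell types were likewise not called in the pools. The yolk syncytial layer list had 6 tested genes with a median log2 fold change of -1.18 in both pools, and the enveloping layer list had 14 with a median of -0.77. mxtx2, a regulator of the yolk syncytial layer, was at 330, 455 and 189 CPM in the controls, 151 CPM in the 10-guide pool and 156 CPM in the 25-guide pool. Like klf17 it was low in all libraries of 1/8 volume (volume term -1.05, edgeR adjusted p = 0.0387). Another gene of the list, hnf4b, was called in the other direction for volume (5.53, edgeR adjusted p = 0.00749), with 32 CPM in control replicate 3 and at most 1.64 CPM in the other libraries. Of the 6 genes, 3 were above and 3 below 0 for volume. The 9 tested genes of the deep blastomere and pluripotency list had a median of -0.21, with 3 above and 6 below 0. The 8 germ cell genes had one of -0.03. sox19b, a maternal SoxB1 factor, was at 257, 301 and 233 CPM in the controls, 534 CPM in the 10-guide pool and 471 CPM in the 25-guide pool. It was above every control in both pools, as were 14.6% of all tested genes on the CPM scale. Its log2 fold change was 0.93 (SE 0.33, edgeR adjusted p = 0.464). foxd3, a repressor of the same list, was at 18.3, 18.1 and 9 CPM in the controls, 4.86 CPM in the 10-guide pool and 7.8 CPM in the 25-guide pool. Both pools were below every control for it, as for 14.9% of all tested genes on the CPM scale. Its log2 fold change was -1.26 (SE 0.55, edgeR adjusted p = 0.465).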

How the data were processed

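RNA of whole embryos was sequenced in 5 libraries. The authors deposited whole-number gene counts for each library and a second table read as TPM from its values, since every column has close to the same sum. The submitters' processing notes name bcl2fastq 2.20 and the build danRer11. Which aligner and counter were run, and whether strand was used, is not given in the sources used here. Entries that name no gene held 26.7% to 53.8% of the reads and entered neither library sizes nor tests.

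From the deposited counts, edgeR 4.0.16 under R 4.3.3 gave TMM-scaled CPM. Of 32520 genes, 16445 passed filterByExpr with a minimum count of 10. Genes were tested by quasi-likelihood F tests, and p-values adjusted after Benjamini and Hochberg were held against 0.05. Each pool was tested in a fit of 3 groups (2 residual degrees of freedom), where only the controls inform the spread and a lone pool library is taken to vary as they do. A fit of 2 groups served both pools together (3 degrees), and volume was tested in a fit with a pool term and a volume term (2 degrees). Both of these fits take the pools as replicates of 1 condition, though their numbers of guides differ. In the volume fit control replicate 3 is the only control of its volume and adds nothing to the residual spread. The SE is the fold change divided by the square root of F. The fit was also run on simulated counts that held no volume effect, unlike these data, and no conclusion is drawn from that run. Alternatives were DESeq2 1.42.0, limma 3.58.1 on log2(TPM + 1) and log2(TPM + 0.1), other scalings and filters, a volume term and leaving out each control. Those for the volume comparison on TPM, without a pool term and without single controls were chosen after seeing the data.

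All 9 members were named, with szrd1, the 2 nearest genes per member and klf genes of at least 1 TPM. Member values are not printed for every comparison. Of up to 3 genes of smallest p per list, only some are named. Nearest genes were sought among tested genes of at least 5 CPM on average. The members and lists were chosen with earlier results of these data known. klf8's ratio to klf17, krt4, pou5f3, nanog and sox2 were picked after their values were seen.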

Additional observations from a re-analysis of the deposited data

How the results depend on the processing

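No paired analysis was possible because the pools carry no replicate numbers. Called genes of the whole table moved from 0 to 9 in the pool of 10, 9 in the pool of 25 and 106 in both pools with DESeq2, and to 19, 10 and 137 with no count filter. With limma they moved to 1 in both pools on log2(TPM + 1), and to 503, 544 and 19 with no TPM filter. The volume term gave 10 in both pools. Leaving out each control gave 0 to 7, 0 to 915 and 0 to 4313. The 915 and 4313 came without control replicate 3, where pool and reaction volume cannot be told apart. For volume, 2921 calls became 0 on log2(TPM + 1) and 0 on log2(TPM + 0.1), and 905 with no TPM filter. With library size as the only scaling they were 2396 higher and 886 lower, against 1453 and 1468. The cause was not tested.

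Of 343 values under alternatives for members tested in the main fits, 311 kept their direction and side of the threshold. Of the rest, 1 passed it, 4 no longer passed and 27 changed sign. Only klf17 was called under any of them. With the volume term, klf17 became 0.22, 0.09 and 0.15 (pool of 10, pool of 25, both), klf2b -0.34 and klf11a 0.26 in the pool of 10. On TPM, klf11a in the pool of 10 became 0.18 (+ 1, with or without filter) and 0.20 (+ 0.1). Leaving out controls gave klf2b -0.12 to 0.20 in the pool of 10, klf3 -0.83 to 0.19 in the pool of 25, and in both pools klf3 -0.99 to 0.03 and klf11a -0.27 to 0.32. For volume they gave klf7b -0.04 to 0.52 and klf3 -0.82 to 1.40. Volume values on TPM were 0.08 for klf2a, 1.12 and 1.34 for klf3, and 0.32 and 0.38 for klf6a (+ 1, + 0.1). Without a pool term klf2a was 0.16 and klf6a 0.40, and by library size alone klf3 was 0.26. Single pool libraries and 3 controls limit all of these.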

Other observations

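Beside the Klf genes, sp7 had the smallest p of the related Sp genes in both pools. The gene encodes osterix, a bone-forming factor in later stages, and was at 3.57, 4.29 and 4.15 CPM in control replicates 1 to 3, 16.3 CPM in the pool of 10 and 7.53 CPM in the pool of 25. The controls were close to each other and both pools were above them, as for 14.6% of all tested genes on the CPM scale. The log2 fold change was 1.57 (SE 0.56), with an unadjusted p of 0.019 and an adjusted p of 0.464 in edgeR's test, so it did not pass. Its volume term was 0.08. The germ granule gene tdrd6 was at 16.7, 10.6 and 21.1 CPM in the controls, 77.5 CPM in the pool of 10 and 93.3 CPM in the pool of 25, the smallest p of the marker lists (edgeR, unadjusted 0.000195, adjusted 0.367).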
